A study of Hylyphantes graminicola with 5 samples.

Results

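Neuron cluster 4 of the adult *Hylyphantes graminicola* brain is 1 of the neuron clusters that the study drew at a clustering resolution of 2. Its members were taken from the study's own annotation of cells, which was held here for female replicate 3 alone, by matching barcodes. The cluster had 165 cells among 1998 annotated cells, of which 1787 were neurons, and 1622 of those belonged to other neuron clusters. The whole series held 31145 cells after filtering.

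*H. graminicola* is a small sheet-web spider. Single cells were dissociated from pooled brains of adults of mixed age, 35 to 40 brains per library, with 2 male and 3 female libraries and no treatment or genetic change in any of them. Droplet barcodes assigned messenger RNA to cells, and molecular tags (UMIs) let each captured molecule be counted once. A library is a pool of animals, and p-values between the sexes measure the spread between such pools.

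Neurons signal by fusing vesicles with their membrane. Small synaptic vesicles release classical transmitters through SNARE proteins, which complexin, Rab3 and the Sec1/Munc18 protein Rop help to control, and larger dense-core vesicles release neuropeptides after priming by factors such as Cadps. Each round of firing admits calcium and sodium, which pumps and exchangers remove at the cost of ATP, and arthropod brains divide these tasks among neurons that differ in the transmitter or peptide they use.

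Depth and quality bear on every level below. Libraries held 12269605 to 35943668 UMIs, and female replicate 3 was the deepest. Cells in cluster 4 had a median of 3037 UMIs and 1435 genes (611115 UMIs in all), against 3210 UMIs and 1490 genes in other annotated neurons (7533262 UMIs). A level of 3 UMIs, the floor used here, was 4.91 CPM in cluster 4, where CPM is a count scaled to 1000000 UMIs. Doublets were called among 5 cells of cluster 4 (3.03%) and 108 other neurons (6.66%). Transcripts of the mitochondrial genome took a median of 17.25% of UMIs in cluster 4 cells (quartiles 13.3% and 22.2%), against 14.1% in other neurons (10.1% and 19.4%). Any 2 libraries shared 5 to 15 barcodes.

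The cells carried neuronal transcripts, few of glia and hemocytes, and those of fat body markers at the level of other neurons. Syt1_S2, a synaptotagmin, the calcium sensor of vesicle fusion, had a UMI in 165 of 165 cells and stood at 20561 CPM in cluster 4, against 12171 CPM in other neurons. Levels of nSyb, the neuronal synaptobrevin, were 239 CPM in cluster 4 and 128 CPM in other neurons. The RNA-binding protein ELAV2_S1 went the other way, with 1402 CPM in cluster 4 and 1739 CPM in other neurons. Of 5 glial markers, 4 were under the floor in cluster 4 and the list summed to 9.82 CPM, against 18.7 CPM in other neurons. The 3 hemocyte markers summed to 22.9 CPM in cluster 4, against 23.6 CPM in other neurons and 1022 CPM in the 99 annotated hemocytes. All 6 fat body markers, metabolic genes that many cells use, were above the floor, and they summed to 407 CPM in cluster 4, against 391 CPM in other neurons and 442 CPM in hemocytes. Of these, FASN1, a fatty acid synthase, was in 46.7% of cluster 4 cells, 45.3% of other neurons and 14.1% of hemocytes.

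The gene given as the marker of this cluster did not set it apart. It is orb2_S1 (evm.TU.CTG-1442.27), an RNA-binding protein of the cytoplasmic polyadenylation family, whose *Drosophila* relative Orb2 is needed for long-term memory. Its level was 191 CPM in cluster 4 (95% Poisson interval 158 to 229), against 122 CPM in other neurons (114 to 130), a log2 ratio of 0.65. A UMI of orb2_S1 was found in 47.9% of cluster 4 cells, 37.5% of other neurons and 4.04% of hemocytes, whose median depth was 3216 UMIs. Among the 20 neuron clusters with at least 20 annotated cells it ranked 2, after cluster 14 at 193 CPM, and clusters 17, 5 and 9 followed at 170, 167 and 167 CPM. In carried cells of the other libraries orb2_S1 stayed modestly above other neurons, with log2 ratios of 0.67 and 0.60 in males and 0.77 and 0.57 in female replicates 1 and 2. The cluster is therefore described by its number.

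**Figure D1:**
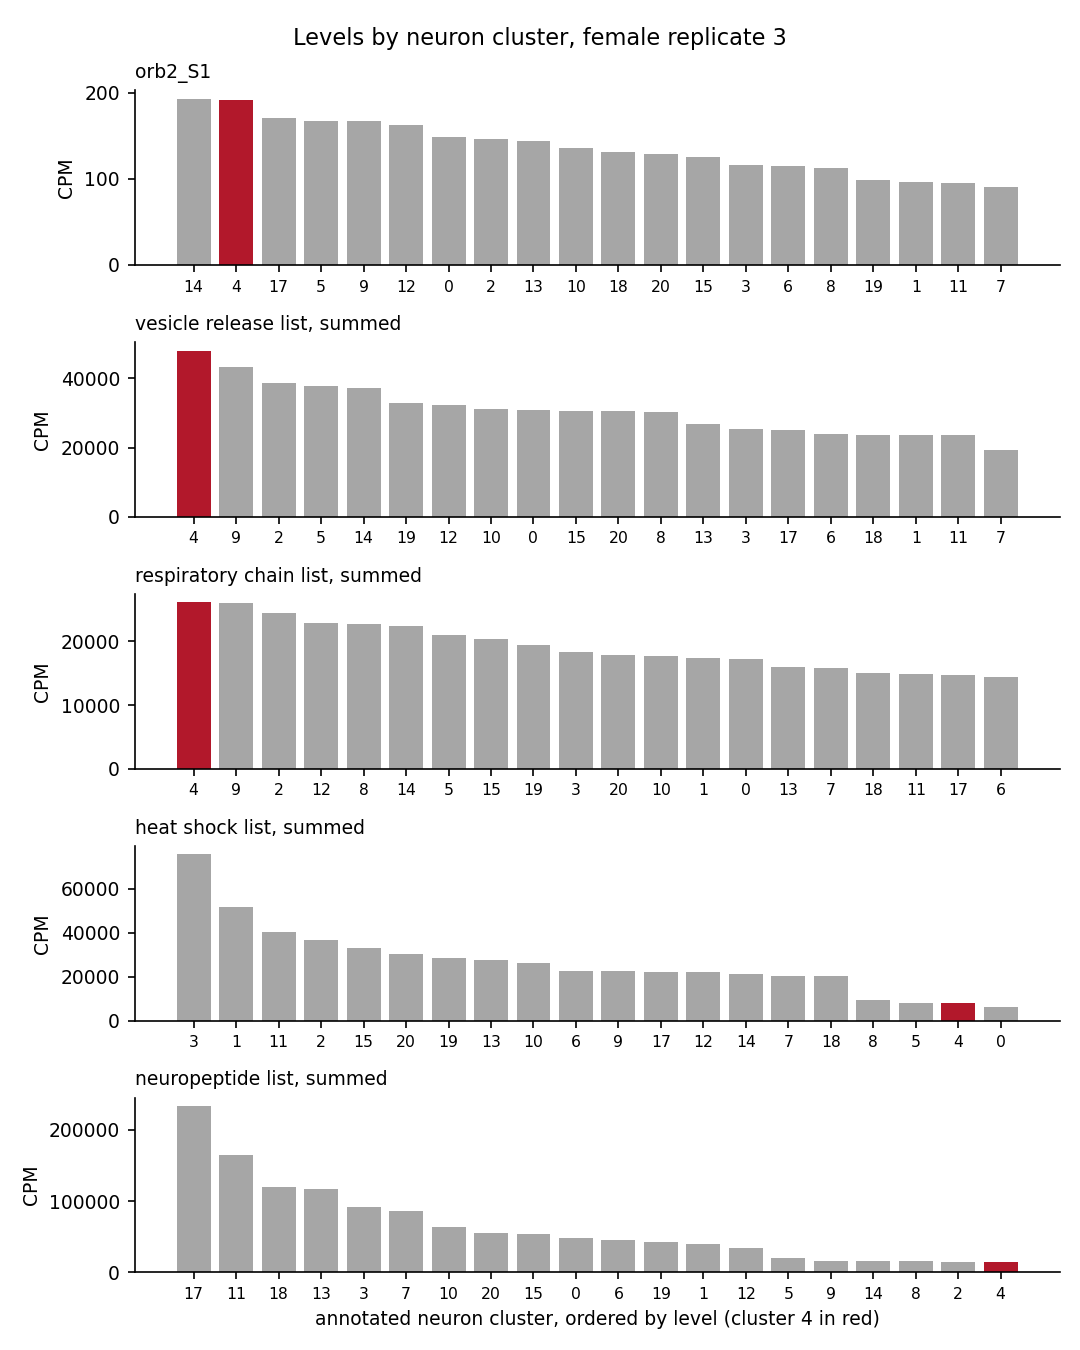
Summed level (CPM) in each of the 20 neuron clusters of female replicate 3 with at least 20 annotated cells, for orb2_S1 and for 4 gene lists, with clusters ordered by level and cluster 4 in red. Cluster 4 is first for vesicle release (48052 CPM) and for the respiratory chain (26105 CPM), 19 of 20 for heat shock genes (7794 CPM) and last for neuropeptides (13868 CPM). Cluster 9 is next for vesicle release (43328 CPM) and for the respiratory chain (25949.5 CPM). In cluster 4, most of the vesicle release sum comes from Syt1_S2 and Snap24.

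Cells of cluster 4 were chosen by clustering on these same counts, so its levels against other neurons are a description and were not tested. Genes were counted as higher at a log2 ratio of at least 1 (with 1 CPM added to both sides) and a UMI in at least 20% of cluster 4 cells, and as lower at a log2 ratio of at most -1 and a UMI in at least 20% of other neurons. By this rule 20 of 2489 genes were higher (0.804%) and 55 of 2740 were lower (2.01%). Of these, 14 higher genes and 37 lower genes had a name. Few genes thus told cluster 4 apart. It ranked first among the 20 clusters for 13 of the 20 higher genes and last for 15 of the 55 lower genes. With every cell thinned to 2000 UMIs, 15 genes were higher and 42 lower, among them 11 of the 20 and 36 of the 55.

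Vesicle release machinery made up the broadest group among the higher genes. Of 37 genes listed, 34 had a UMI in 20% of either group, 31 of these had a ratio above 0, 4 were counted higher and 1 lower, and the median log2 ratio was 0.54, against 0.05 over all 2865 genes compared. Of those 2865 genes, 1618 had a ratio above 0. Cadps, which primes dense-core vesicles, stood at 2116 CPM in cluster 4 (2002 to 2234), against 886 CPM in other neurons (865 to 908). Cluster 9 stood higher for Cadps, at 2203 CPM. Complexin (cpx_S1), which clamps and assists SNARE complexes, stood at 799 CPM in cluster 4 and 342 CPM in other neurons. Rab3_S2, a small GTPase of synaptic vesicles, had 211 CPM in cluster 4 and 101 CPM in other neurons, and Rop_S1 had 677 CPM in cluster 4 and 335 CPM in other neurons. Snap24, a SNARE protein, fell just short of the limit at a log2 ratio of 0.98, with 9682 CPM in cluster 4 and 4893 CPM in other neurons, as did PNRC2 (0.99), while AhcyL1 and Rop_S1 lay just inside (1.02 and 1.01). The exception was Sytbeta, another synaptotagmin, at 55.6 CPM in cluster 4 and 147 CPM in other neurons. Summed, the list took a median of 4.54% of a cluster 4 cell's UMIs (quartiles 3.57% and 5.58%), against 2.76% in other neurons (2.18% and 3.50%). The quartile ranges of both groups did not overlap. Most of this sum came from Syt1_S2 and Snap24, with 12565 and 5917 UMIs in cluster 4, so it largely repeats the levels of these genes. The study's marker rows, drawn partly from these cells, supplied 31 of the 37 genes, so the list is not independent of the clustering, and the 6 others had a median of -0.01 over the 3 compared.

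Ion channels and pumps had the highest median of all lists, 0.70 over 18 genes compared, with 17 above 0 and 2 counted higher. Nckx30C_S3 encodes a potassium-dependent sodium/calcium exchanger. It stood at 488 CPM in cluster 4 (434 to 546), against 169 CPM in other neurons (160 to 179), and a UMI was found in 61.2% of cluster 4 cells and 33.7% of other neurons. Cluster 8 stood higher for this gene, at 511 CPM. PMCA_S2, a plasma membrane calcium pump, had 293 CPM in cluster 4 and 140 CPM in other neurons. Levels of slo_S2, a calcium-activated potassium channel, were 2535 CPM in cluster 4 and 1449 CPM in other neurons, a log2 ratio of 0.81. Cngl_S1, a cyclic nucleotide-gated channel subunit, was the single gene of the list below 0 (-0.997), with 34.4 CPM in cluster 4 and 69.6 CPM in other neurons. All 18 genes compared came from the study's marker rows. Summed, the list stood at 11697 CPM in cluster 4, beside 11143 CPM in cluster 9 and 10821 CPM in cluster 5.

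Other higher genes belonged to none of the lists for release or ion transport. CBPM_S1, a carboxypeptidase M, led them with 637 CPM in cluster 4 (575 to 703) and 162 CPM in other neurons (153 to 171), a log2 ratio of 1.97. Its level in cluster 14, 623 CPM, lay within the interval of cluster 4. UMIs of CBPM_S1 were in 61.8% of cluster 4 cells, 34.5% of other neurons and 43.4% of hemocytes, so it is not a gene of neurons alone. LAMP5_S2, related to a lysosome-associated membrane protein, had 1738 CPM in cluster 4 and 537 CPM in other neurons, and was in 85.5% and 62.8% of cells. Cluster 14 had the next highest level of LAMP5_S2, at 1341 CPM. Of mmd_S5, a membrane protein of the disintegrin and metalloproteinase family, there were 731 CPM in cluster 4 and 261 CPM in other neurons. Cluster 9 had more mmd_S5, at 1023 CPM. GATA2, a zinc-finger transcription factor, had 152 CPM in cluster 4 and 54.7 CPM in other neurons, with a UMI in 21.2% of cluster 4 cells, 9.56% of other neurons and 15.2% of hemocytes. For GATA2, cluster 4 ranked 3 of 20, and cluster 18 had the most, at 226 CPM. DSRAD, the adenosine deaminase that edits double-stranded RNA, stood at 187 CPM in cluster 4 and 70.1 CPM in other neurons, its highest level of any cluster. Smaller levels or ratios were found for qm, a geranylgeranyl pyrophosphate synthase (log2 ratio 1.40), and AhcyL1, related to adenosylhomocysteinase (1.02). Among genes without a name, evm.TU.CTG-555.26 (67.1 CPM in cluster 4, 17.4 CPM in other neurons) and evm.TU.CTG-804.1 (72.0 CPM in cluster 4, 22.04 CPM in other neurons) were highest. With every cell thinned to 2000 UMIs, LAMP5_S2 was in 78.9% of 133 cluster 4 cells, 47.5% of 1173 other neurons and 7.79% of 77 hemocytes, 32, 449 and 22 shallower cells being left out.

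**Figure D2:**
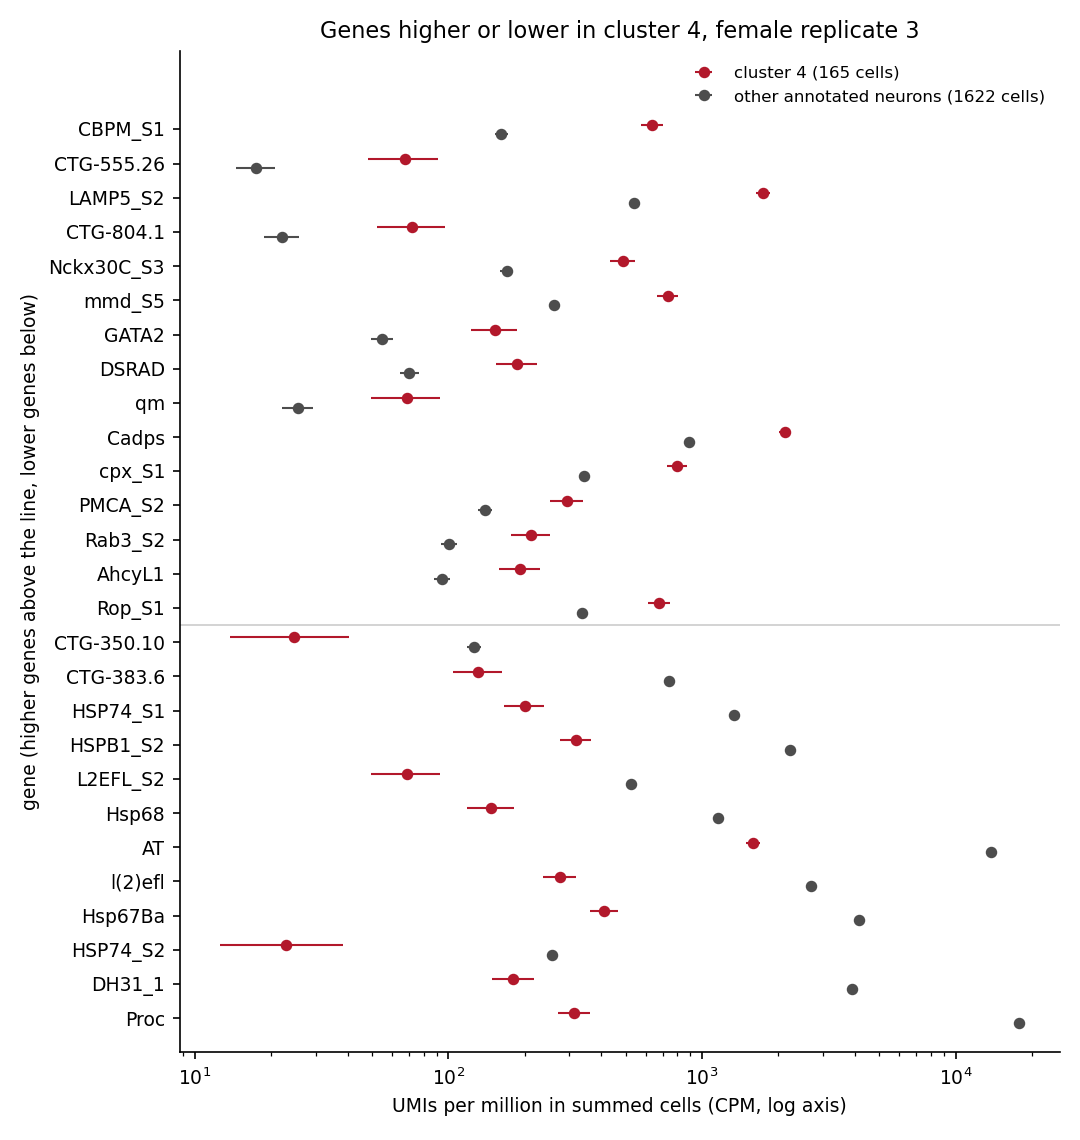
Level (CPM, log axis) in the summed cells of cluster 4 (red, 165 cells) and other annotated neurons (grey, 1622 cells) of female replicate 3 for named genes and 2 unnamed genes in each direction, with 95% Poisson intervals that cover counting error only. CTG- stands for evm.TU.CTG-. Higher genes such as CBPM_S1 (637 and 162 CPM) differ by less than 4-fold, while lower genes run down to Proc (313 and 17799 CPM).

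Energy metabolism moved by small steps in 1 direction, without a gene past the limit. Respiratory chain subunits had ratios above 0 for 28 of 28 genes compared, between 0.29 and 0.73 with a median of 0.53, and 0 were counted higher. Over all genes compared, 1618 of 2865 were above 0. NDUV1, a subunit of complex I, stood at 293 CPM in cluster 4 and 176 CPM in other neurons, and SdhD, which anchors succinate dehydrogenase in the membrane, at 263 CPM in cluster 4 and 159 CPM in other neurons. Glycolysis and the citric acid cycle gave 17 of 17 above 0 (median 0.64). Eno_S1, an enolase, had 1137 CPM in cluster 4 and 641 CPM in other neurons, and kdn_S1, citrate synthase, had 296 CPM in cluster 4 and 170 CPM in other neurons. The vacuolar ATPase, which acidifies vesicles for loading, gave 9 of 9 above 0 (median 0.48), with Vha26 at 897 CPM in cluster 4 and 554 CPM in other neurons. Transcripts of the mitochondrial genome gave 15 of 15 above 0 (median 0.40), and their sum was 185630 CPM in cluster 4 and 139674 CPM in other neurons. Cluster 4 ranked first of 20 clusters for the summed respiratory chain, glycolysis and vacuolar ATPase lists, but cluster 2 was close, at 24501, 17297 and 4138 CPM beside 26105, 18635 and 4374 CPM in cluster 4. Cluster 9 was nearer still for the respiratory chain, at 25949.5 CPM. For the summed mitochondrial genome, clusters 8 and 9 were above cluster 4, at 218308 and 198524 CPM. Per cell, glycolysis took a median of 1.65% of UMIs in cluster 4 and 1.66% in cluster 2. Most of these nuclear genes (27 of 29, 17 of 22 and 8 of 10) came from the study's marker rows, so the lists are not independent of the clustering. All 17 glycolysis and citric acid cycle genes compared came from those rows. The 1 vacuolar ATPase gene compared from elsewhere had a ratio of 0.42. The 2 respiratory genes from elsewhere had a median of 0.44. Cytosolic ribosome proteins had a median of -0.15, with 3 of 10 above 0, and RpS20_S1, of the small subunit, stood at 967 CPM in cluster 4 and 1471 CPM in other neurons. The names in the study's marker rows for cluster 4 gave 97 of 97 above 0 and 11 counted higher, which is no independent evidence since those rows were drawn from these cells.

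Heat shock genes were the lower group with the most members. Of 16 genes, 12 were counted lower and the median log2 ratio was -2.51. All 16 came from the study's marker rows, drawn partly from these cells, so the list is not independent of the clustering. Hsp67Ba, a small heat shock protein, had 411 CPM in cluster 4 (361 to 465), against 4156 CPM in other neurons (4110 to 4202), and was in 27.9% of cluster 4 cells, 61.0% of other neurons and 85.9% of hemocytes. The small heat shock proteins l(2)efl, L2EFL_S2 and HSPB1_S2 had log2 ratios of -3.29, -2.91 and -2.80. Hsp68, an inducible Hsp70, stood at 147 CPM in cluster 4 and 1160 CPM in other neurons, and its relatives HSP74_S2 and HSP74_S1 had log2 ratios of -3.42 and -2.73. Constitutive chaperones, named after their values were seen, differed less. Hsp83, an Hsp90, had 4030 CPM in cluster 4 and 8172 CPM in other neurons, and the Hsp70 relative Hsc70-4 had 584 CPM in cluster 4 and 1119 CPM in other neurons, while Hsc70-3, the chaperone BiP of the endoplasmic reticulum, had 190 CPM in cluster 4 and 231 CPM in other neurons. Cells in which the list took over 1% of UMIs made up 26.1% of cluster 4 (95% exact binomial interval 19.5% to 33.5%) and 58.4% of other neurons (55.9% to 60.8%). These levels did not belong to cluster 4 alone, since clusters 5 and 0 were near it. The summed list stood at 7794 CPM in cluster 4, beside 7879 CPM in cluster 5 and 5991 CPM in cluster 0, and at 75693 CPM in cluster 3, the highest. Left without cluster 3, the other neurons still gave 62 lower genes, a comparison chosen after seeing the data. Among lower genes without a name, evm.TU.CTG-383.6 (-2.49) and evm.TU.CTG-350.10 (-2.31) were lowest.

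Neuropeptides were low in cluster 4. Of 71 precursor genes, 30 were under the floor of 3 UMIs in cluster 4, a smaller share than the 10143 of 19195 genes under it overall. Another 9 had a UMI in 20% of either group, and 4 of these were counted lower (median log2 ratio -1.44). Their sum was 13868 CPM in cluster 4, the least of 20 clusters, against 85668 CPM in other neurons and 14286 CPM in cluster 2, the next above. Proctolin (Proc) stood at 313 CPM in cluster 4 (270 to 360), against 17799 CPM in other neurons and 2071 CPM in hemocytes, and DH31_1, a diuretic hormone precursor, at 180 CPM in cluster 4, against 3908 CPM in other neurons. The precursor AT stood at 1592 CPM in cluster 4 and 13796 CPM in other neurons, of which cluster 18 had the most at 85145 CPM. Cluster 4 ranked 12 of 20 for AT, above clusters 2 and 5 at 973 and 1113 CPM, and its log2 ratio was -1.19 against the median cluster and -3.11 against all other neurons. CHH/ITP_2, a precursor of the crustacean hyperglycaemic and ion transport peptide family, had the lowest ratio of all (-6.42), with 101 CPM in cluster 4 and 8800 CPM in other neurons, but was found in 19.1% of other neurons and so missed the 20% asked of a lower gene. Proc was found in 29.1% of cluster 4 cells and in 31.3% of hemocytes, and AT in 30.3% and 29.3%, so these shares were near those of cells that should not make the peptides, at median depths of 3037 and 3216 UMIs. A median of 0.228% of UMIs in a cluster 4 cell came from peptide precursors, against 1.24% in other neurons.

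What peptide there was lay in few cells. The most abundant precursor, short neuropeptide F (sNPF), reached 5037 CPM in cluster 4, against 3511 CPM in other neurons, but 1 cell held 41.2% of its 3078 UMIs and 5 cells held 79.9%. Of AT's 973 UMIs, 5 cells held 94.0%, and 5 cells held 96.2% of the 1657 UMIs of CCAP_3, a crustacean cardioactive peptide precursor. By contrast, the 5 cells richest in LAMP5_S2 held 14.8% of its UMIs, and those richest in Cadps held 15.1%. Cells in which peptides took over 1% of UMIs made up 23.03% of cluster 4 (16.8% to 30.2%) and 53.9% of other neurons (51.4% to 56.3%). Summed peptide levels of this cluster therefore describe a minority of its cells.

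Of 9 genes for transmitter synthesis and transport, 5 were under the floor in cluster 4, about the share found over all genes, and 1, the glycine transporter GlyT, had a UMI in 20% of cells. GlyT stood at 249 CPM in cluster 4 and 162 CPM in other neurons, with a UMI in 51.5% of cluster 4 cells, 45.4% of other neurons and 9.09% of hemocytes. VAChT, the vesicular acetylcholine transporter, was found in 3.03% of cluster 4 cells (0.991% to 6.93%), 13.8% of other neurons and 4.04% of hemocytes, so its share in cluster 4 was at background. Gad1, the enzyme that makes GABA, had 0 UMIs in 165 cells, where the floor of 3 UMIs is 4.91 CPM, against 55.8 CPM in other neurons. No transmitter could be assigned at this depth.

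Receptors, adhesion proteins and regulators each had members in both directions. The study's marker rows, drawn partly from these cells, supplied 6 of 20 receptor genes, 10 of 22 adhesion genes and 9 of 11 regulators. The lists are thus not independent of the clustering, and all 8 regulators compared came from those rows. Over all genes, 0.804% were counted higher and 2.01% lower. Of 20 receptor genes, 6 were compared. GRIK2_S4, an ionotropic glutamate receptor of the kainate type, had 232 CPM in cluster 4 and 134 CPM in other neurons, and Rdl_S1, a GABA-gated chloride channel, had 234 CPM in cluster 4 and 140 CPM in other neurons. DopEcR, which in *Drosophila* binds dopamine and ecdysone, was lower, with 39.3 CPM in cluster 4 and 86.9 CPM in other neurons, the lowest of 20 clusters. Among 12 adhesion genes compared the median was 0.16, and 2 copies of neurotactin were counted lower, Nrt_S1 (42.6 CPM in cluster 4, 130 CPM in other neurons) and Nrt_S2 (50.7 CPM in cluster 4, 110 CPM in other neurons). Of 8 regulators compared, GATA2 was higher and 4 were lower, among them the clock gene tim with 55.6 CPM in cluster 4 and 217 CPM in other neurons, foxo with 29.5 CPM in cluster 4 and 99.96 CPM in other neurons, and sr_S1, of the Egr family of activity-induced factors, with 73.6 CPM in cluster 4 and 174 CPM in other neurons. In the list for memory and cAMP signalling the median was 0.09 over 5 genes, and it turned to -0.02 once peptide genes were left out of the total. The 5 mushroom body markers compared had a median of 0.35, and their medians in the other libraries ran from -0.23 to -0.09.

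Most like cluster 4 across 2000 variable genes were clusters 2, 5 and 0, with Pearson correlations of log2 CPM of 0.951, 0.946 and 0.942 over genes of 1 library. Against cluster 2, 12 genes were higher (0.482%) and 33 lower (1.09%). The lower ones were led by heat shock genes, such as Hsp67Ba at 411 CPM in cluster 4 and 5425 CPM in cluster 2, whereas the release list differed less, at a median of 4.54% of UMIs in cluster 4 cells and 3.54% in cluster 2 cells. Against cluster 5, where heat shock genes were also low, 10 genes were higher (0.402%) and 37 lower (1.43%). The level of CBPM_S1 was 637 CPM in cluster 4 against 94.5 CPM in cluster 5, that of GATA2 was 152 CPM in cluster 4 against 31.5 CPM in cluster 5, and VAChT was in 3.03% of cluster 4 cells and 25.5% of cluster 5 cells. Against cluster 0, 40 genes were higher (1.61%) and 23 lower (1.94%). TBB1_S1, a beta-tubulin, reached 1962 CPM in cluster 4, against 667 CPM in cluster 0, and AT reached 1592 CPM in cluster 4, against 20246 CPM in cluster 0. Cluster 0 was shallow, with a median of 1428 UMIs a cell. CBPM_S1 and LAMP5_S2 were higher in cluster 4 than in clusters 5 and 0, and LAMP5_S2 differed little from cluster 2 (1738 CPM in cluster 4, 1247 CPM in cluster 2).

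The study's finer clustering at a resolution of 4 split the cluster into 3 sub-groups of at least 20 cells, which hold 159 of the 165 cells. They too were drawn from these counts, and their genes are given as values. Fewer than 1 in 2 of these genes were higher again with every cell thinned to 2000 UMIs, namely 26 of 83 in sub-group 6, 27 of 99 in sub-group 16 and 42 of 104 in sub-group 26. Sub-group 6 (62 cells) had 83 of 2584 genes higher than the rest of cluster 4 (3.21%), led by sNPF at 11464 CPM in the sub-group and 921 CPM in the rest. Its share of cells with sNPF was 38.7%, against 30.1% in the rest, so the shares were closer than the levels. The levels rest on few cells, as 1 cell held 1269 of the 3078 sNPF UMIs in cluster 4. DIP-theta, an immunoglobulin adhesion protein, had 184 CPM in sub-group 6 and 45.6 CPM in the rest, and FGRL1_S2, related to fibroblast growth factor receptors, had 256 CPM in sub-group 6 and 59.1 CPM in the rest.

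Sub-group 16 (62 cells) had 99 of 2601 genes higher (3.81%). The metalloproteinase relative mmd_S5 stood at 1343 CPM in sub-group 16 (1200 to 1497), against 335 CPM in the rest (278 to 399), in 88.7% and 55.3% of cells. GATA2 had 241 CPM in sub-group 16 and 94.4 CPM in the rest. Of 34 vesicle release genes compared, 1 was higher in sub-group 16 and 2 in sub-group 6, with medians of 0.22 and 0.15. Their sum was 59373 CPM in sub-group 16, against 40702 CPM in the rest. In sub-group 6 the sum was 46213 CPM, below the 49229 CPM of the cluster 4 cells outside it. Of 17 ion channels and pumps compared, 3 were higher in sub-group 16, and summed ion channels and pumps were 14126 CPM in sub-group 16 and 10120 CPM in the rest. The peptide precursor EFLa had 1971 CPM in sub-group 16 and 354 CPM in the rest, in 20.97% and 13.6% of cells.

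Sub-group 26 (35 cells) stood apart in the other direction. It had 104 of 2072 genes higher (5.02%), a median of 2589 UMIs and 1219 genes a cell, and a median mitochondrial share of 20.5%, against 16.95% in sub-group 6 and 16.001% in sub-group 16. The median log2 ratio to the rest of the cluster was -0.93 for the 5 neuron markers, -0.66 for vesicle release and -1.08 for ion channels and pumps, and 0.64 for cytosolic ribosome proteins, beside -0.10 over all genes. Fib, the nucleolar protein fibrillarin, had 66.6 CPM in sub-group 26 (26.8 to 137) and 13.8 CPM in the rest (5.56 to 28.5), intervals that overlap. QCR6, a subunit of respiratory complex III, had 171 CPM in sub-group 26 (101.5 to 271) and 45.5 CPM in the rest (28.8 to 68.2). CCAP_3 led by level, with 8287 CPM in sub-group 26 and 1553 CPM in the rest, in 22.9% and 14.6% of cells. These levels rest on few cells, as 1 cell held 770 of the 1657 CCAP_3 UMIs in cluster 4. Lower depth and a higher mitochondrial share moved with these differences, and their part in them was not tested. Without sub-group 26, 36 genes were higher in cluster 4 than in other neurons, among them the same 20, and 64 were lower.

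**Figure D3:**
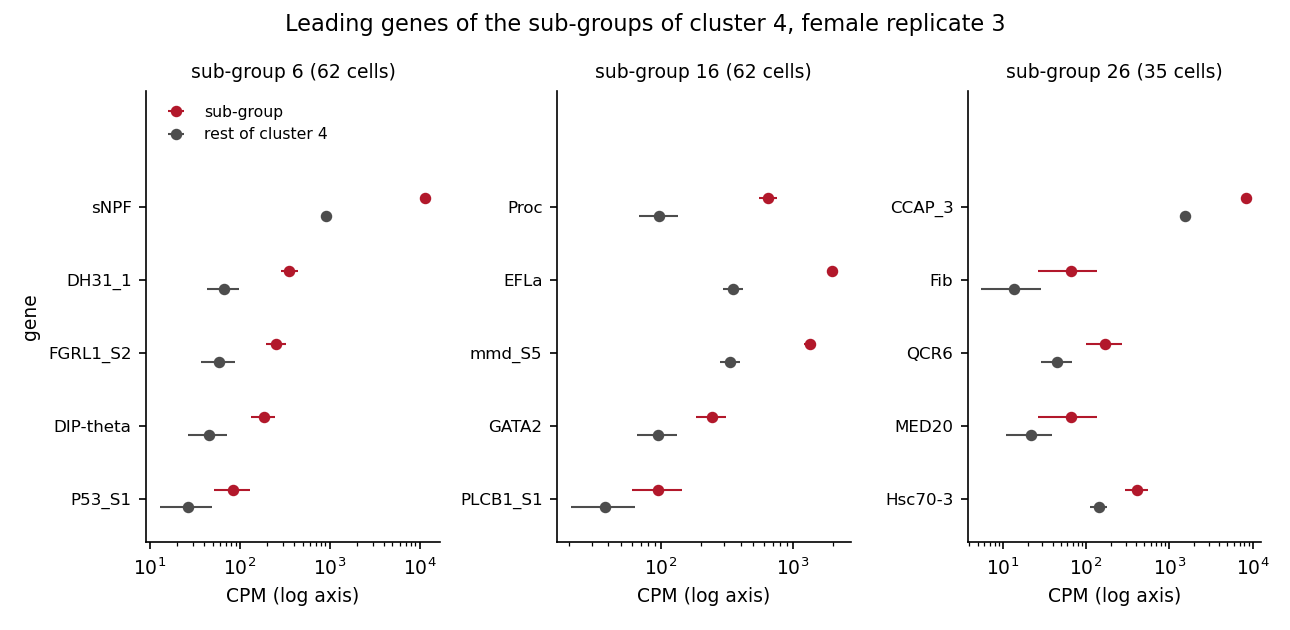
Level (CPM, log axis) of the 5 leading named genes of each sub-group, in the sub-group (red) and in the rest of cluster 4 (grey), with 95% Poisson intervals that cover counting error only. The precursors sNPF, EFLa and CCAP_3 have the highest levels, and mmd_S5 stands at 1343 CPM in sub-group 16 against 335 CPM in the rest. In cluster 4, 5 cells held 79.9% of the UMIs of sNPF, 61.3% of EFLa and 96.2% of CCAP_3.

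Cluster numbers of the other 4 libraries were not held, so they were carried over from the annotated cells by label spreading among shared neighbours. Annotated cells of cluster 4 that were held out regained their number in 122 of 165 cases (73.9%, 66.5% to 80.5%), most of the rest going to cluster 0, and 65.6% of the cells given the number belonged to it. To keep choice and measure apart, genes were split into 2 sets, and each set was measured in cells carried over with the other, at a recall of 58.2% and 64.8% and with 49.2% and 46.9% of the cells belonging to cluster 4. Carried cells are therefore a mixture of cluster 4 and clusters near it.

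Most genes kept their direction in the other libraries. Of the 20 higher genes, 19 had a log2 ratio above 0 in all 4 other libraries, beside 859 of all 2489 genes (34.5%). Of the 55 lower genes, 53 were below 0 in all 4, beside 814 of all 2740 genes (29.7%). Cadps varied least, with log2 ratios of 1.21 and 1.23 in males and 1.24 and 1.26 in female replicates 1 and 2. CBPM_S1 averaged a log2 ratio of 1.55 ± 0.11 (SD, n = 4 libraries), LAMP5_S2 1.54 ± 0.10, DSRAD 1.23 ± 0.15, cpx_S1 1.19 ± 0.11, mmd_S5 1.12 ± 0.24, Nckx30C_S3 1.11 ± 0.20 and GATA2 1.09 ± 0.23. Levels of CBPM_S1 were 588 CPM and 505 CPM in cluster 4 of the male libraries, against 180 CPM and 177 CPM in other neurons of the same libraries. In female replicates 1 and 2 they were 514 CPM and 466 CPM in cluster 4, against 188 CPM and 159 CPM in other neurons. The ranges of cluster 4 and other neurons did not overlap.

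Lists behaved alike in the 4 libraries. The study drew its marker rows from cells of all its libraries, so these 4 also helped to choose most genes of the nuclear lists. The split into gene sets does not keep choice and measure apart for genes that vary together across cells. These counts are therefore no independent test of the lists. Respiratory chain genes were above 0 in all 4 for 28 of 28, glycolysis and citric acid cycle genes for 17 of 17, vacuolar ATPase genes for 9 of 9, transcripts of the mitochondrial genome for 15 of 15 and vesicle release genes for 29 of 34. The heat shock list was below 0 in all 4 for 14 of 16, with medians of -1.83 and -1.93 in males and -1.53 and -1.60 in female replicates 1 and 2. Over all 2865 genes, 901 were above 0 in all 4 and 821 below. Mitochondrial shares moved with these ratios everywhere. Their medians were 21.5% and 28.97% in cluster 4 of males, against 18.1% and 26.1% in other neurons, and 20.2% and 33.8% in cluster 4 of female replicates 1 and 2, against 16.4% and 28.8% in other neurons.

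Peptide results of female replicate 3 carried over only in part. The level of sNPF was above that of other neurons there (log2 ratio 0.52) and below it in each of the other libraries (-0.69 and -1.06 in males, -2.14 and -0.65 in female replicates 1 and 2). Proc was low everywhere but less so, with log2 ratios of -2.41 and -2.23 in males and -2.22 and -2.07 in female replicates 1 and 2. AT was as low or lower, between -5.04 and -3.53. The peptide EFLa had log2 ratios of 0.81 and 0.23 in males and 0.12 and -0.17 in female replicates 1 and 2, a spread that spans 0.

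**Figure D4:**
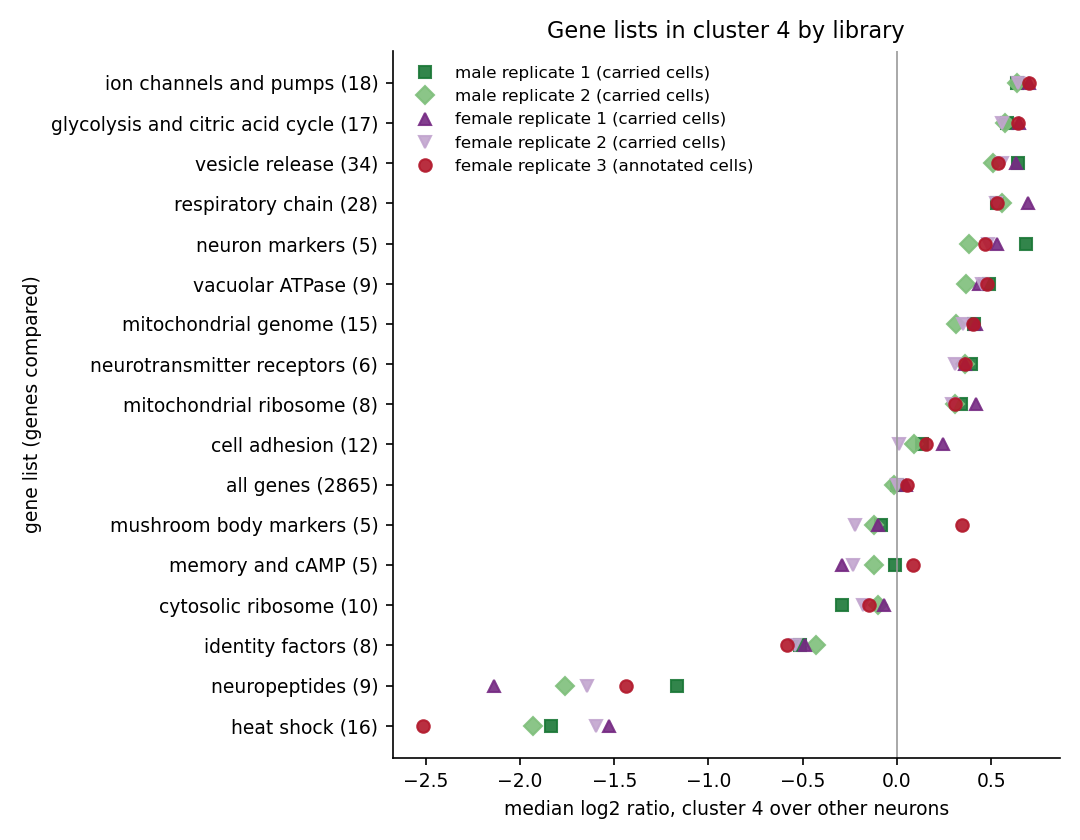
Median log2 ratio of cluster 4 over other neurons for each gene list with at least 5 genes compared, 1 point per library, from annotated cells in female replicate 3 and carried cells in the others. Points of a list lie close together except for heat shock genes (-2.51 in female replicate 3, -1.53 to -1.93 elsewhere), neuropeptides, mushroom body markers and the memory and cAMP list (0.09 in female replicate 3, -0.29 to -0.01 elsewhere).

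Whether the cluster differed between the sexes was asked in carried cells of all 5 libraries. Cluster 4 made up 8.98% and 10.8% of neurons in the 2 male libraries, and 7.12%, 9.54% and 8.94% in the 3 female libraries. The means were 9.90% ± 1.31 in males and 8.54% ± 1.26 in females (SD, n = 2 and 3), a difference of 1.36 percentage points (exact permutation test, two-sided, p = 0.4). With 10 arrangements the test cannot give less than 0.1, and the ranges overlapped. Of the female libraries, replicate 1 was the lowest and also the smallest.

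Summed UMIs of cluster 4 differed between the sexes at few genes. With edgeR's quasi-likelihood test and Benjamini-Hochberg adjustment, 5 of 9472 genes were higher in males (0.0528%) and 4 lower (0.0422%), and 210 had an unadjusted p under 0.05 (2.22%). All 9 had male and female libraries that did not overlap, as had 12.3% of all genes tested. ENOX2_S2, related to an ecto-NOX oxidase, had 138 CPM and 107 CPM in the male libraries, against 970 CPM, 567 CPM and 946 CPM in the female libraries, a log2 difference of -2.72 (SE 0.29, edgeR adjusted p = 0.00399). RBM10, an RNA-binding protein of splicing, had 27.2 CPM and 18.8 CPM in males, against 198 CPM, 88.7 CPM and 204 CPM in females (-2.79, SE 0.33, edgeR adjusted p = 0.00652). Every male library lay below every female library for both. The gene evm.TU.CTG-333.35 had 107 CPM and 98.5 CPM in males, against 8.14 CPM, 4.48 CPM and 10.5 CPM in females (3.68, SE 0.30, edgeR adjusted p = 0.000688). The other called genes lacked a name. Of these, evm.TU.CTG-1337.15 was higher in males (2.82), and evm.TU.CTG-1523.1 (-2.94) and evm.TU.CTG-1084.7 (-3.33) were lower. Without female replicate 1, 2 of the 9 calls remained, those of evm.TU.CTG-333.35 and ENOX2_S2, and RBM10 had an edgeR adjusted p of 0.0901 and evm.TU.CTG-1337.15 one of 0.209.

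The same 9 genes also differed in level between male and female libraries in other neurons, with ENOX2_S2 at 149 CPM and 121 CPM in males, against 980 CPM, 650 CPM and 995 CPM in females. In a model with library as a block, the interaction of sex and cell group was called for 11 of 11895 genes as higher (0.0925%) and 2 as lower (0.0168%), none of them among the 9 (edgeR adjusted p at least 0.454), and its log2 value was -0.02 for ENOX2_S2 and 0.08 for evm.TU.CTG-333.35. No gene of the lists for release, ion transport, energy metabolism, heat shock or neuropeptides was called between the sexes within cluster 4. The heat shock list had a median log2 difference of -0.98 (male over female, 1 of 16 above 0) without a call, beside -0.01 over all genes. Summed in carried cluster 4 cells, it stood at 7235 CPM and 8117 CPM in males, against 24135 CPM in female replicate 1 and 9273 CPM in female replicate 2, so replicate 1 stood apart.

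**Figure D5:**
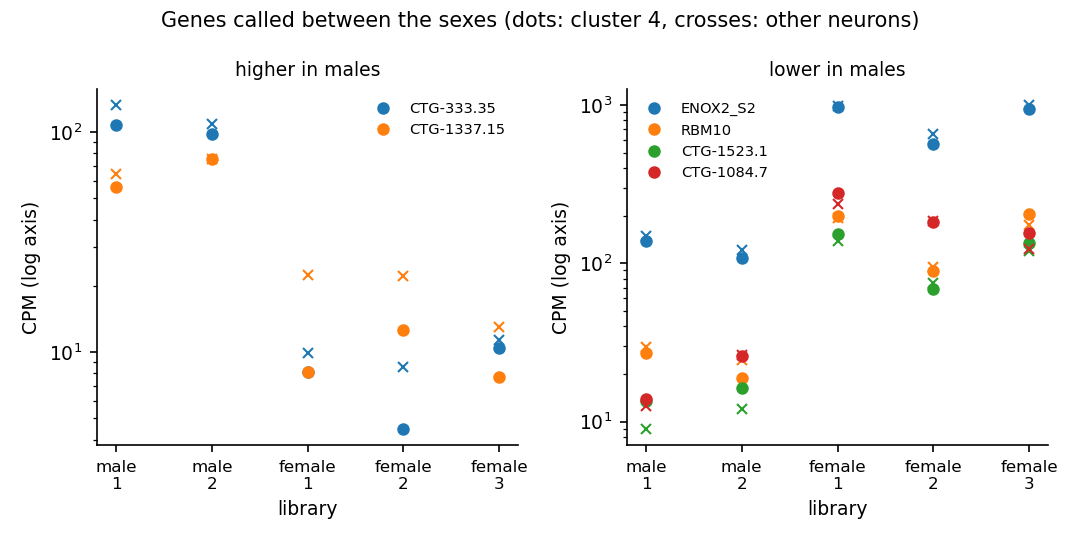
Level (CPM, log axis) in carried cells of cluster 4 (dots) and other neurons (crosses) of each library for genes called between the sexes in cluster 4, named genes and 2 unnamed genes at most in each direction (CTG- stands for evm.TU.CTG-). Male libraries lie above all female libraries in the left panel and below them in the right panel, in cluster 4 and in other neurons.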

How the data were processed

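The authors aligned reads and counted UMIs per gene and barcode with Cell Ranger 4.0.0 against gene models of their own assembly, and deposited the raw counts of each library for 19195 genes, 37 of them mitochondrial, without normalization. Cells were kept at 500 to 60000 UMIs, at least 200 genes, a ratio of log genes to log UMIs of at least 0.7 and a mitochondrial share of at most 40%. Annotated cells matched in barcode, UMIs and genes in 1998 of 1998 rows held. Doublets were called by simulation and kept. Gene names came from the study's supplementary tables, which were used in part, and copies of a gene (_S1, _S2) may share reads. No genome was used here, so no positions or sequences are given.

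The members and lists were chosen with earlier results of these data known. The named genes were orb2_S1, 2 to 4 examples per list with the largest ratios, the 25 named and 2 unnamed genes with the largest ratios among higher genes and the 10 named and 2 unnamed lowest, the 5 named genes highest in each sub-group, and up to 10 genes called between the sexes. VAChT, TBB1_S1, slo_S2, constitutive chaperones and the genes of the comparisons with clusters 2, 5 and 0 were chosen after their values were seen, as were the peptides described by cell. Of the named higher genes, 1 that is counted among the higher genes, is not reported here. Intervals are exact Poisson or binomial ones at 95% and cover counting error only.

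Numbers were carried between libraries over 2000 variable genes scaled within library, 40 principal components and 20 shared neighbours. Sums per library were tested by quasi-likelihood (filterByExpr, TMM, glmQLFit and glmQLFTest of edgeR 4.0.16, under R 4.3.3) and, as an alternative, DESeq2 1.42.0. On simulated counts for 9209 genes, the comparison of the sexes recovered 76.2% of genes given a log2 change of 2 and 11.8% of genes given 1, with 2 false calls. Other steps used scikit-learn 1.9.0, pandas 2.3.3, scipy 1.17.1, numpy 2.4.6 and matplotlib 3.10.9 under Python 3.11.15. Alternatives covered the constant added, the minimum share of cells, the reference cells, the total, doublets, depth, the transfer, the normalization, the filter, a block for the replicate number, and the omission of single libraries.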

Additional observations from a re-analysis of the deposited data

Results flagged for a closer look

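In the model with library as a block, the sex difference in cluster 4 differed from that in other neurons at 13 of 11895 genes (edgeR interaction, Benjamini-Hochberg adjusted p under 0.05), 11 higher (0.0925%) and 2 lower (0.0168%). Of these, 11 were neuropeptide precursors and 11 stood lower in cluster 4 than in other neurons in 5 of 5 libraries, and none was called between the sexes within cluster 4. Values are log2, the male over female difference in cluster 4 minus that in other neurons. They were 4.66 for evm.TU.CTG-594.3, 1.37 for NPF, 1.04 for NPLP, 1.39 for RYa_2, 1.45 for Ele_2, 0.93 for AstCCC, 1.00 for OK, 1.20 for CRHBP_S3, 0.64 for EFLa, 0.86 for AstB_1 and 1.25 for Ele_1, and -2.37 for Achatin and -1.81 for Cal_3. NPF had 98.5 CPM and 92.7 CPM in cluster 4 of males, against 40.7 CPM, 31.4 CPM and 30.2 CPM in females, and at least 1176 CPM in other neurons of any library. Male and female levels in cluster 4 did not overlap for NPF, NPLP, Ele_2 and EFLa, and overlapped for the other called genes. RYa_2 had 240 CPM and 71.4 CPM in males, against 62.8 CPM, 147 CPM and 65.4 CPM in females. NPLP was narrowly apart, with 193 CPM and 113 CPM in males, against 90.7 CPM, 112 CPM and 90.6 CPM in females. The cells were carried over with genes that include these precursors, and the part of that choice was not tested within this comparison. In female replicate 3, Ele_2, AstB_1 and Ele_1 stood lower in cluster 4 than in annotated hemocytes, and the other called genes stood higher. Ele_2 had 51.9 CPM in cluster 4 and 104 CPM in hemocytes. AstB_1 had 35.2 CPM in cluster 4 and 120 CPM in hemocytes. Whether such levels are background was not tested. For evm.TU.CTG-594.3, cluster 4 held 24.2 CPM in male replicate 2 and at most 3.10 CPM in the other 4 libraries. For Cal_3, cluster 4 held 430 CPM in female replicate 2 and at most 47.2 CPM elsewhere, and its value ran from -2.26 to -0.20 over the alternatives. For Achatin, other neurons held 252 CPM in male replicate 2 and at most 54.9 CPM elsewhere.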

How the results depend on the processing

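Counts of higher and lower genes in cluster 4 (20 and 55) moved with the minimum share of cells, to 49 and 126 at 10% and to 352 and 1567 with no minimum. Higher genes also numbered 36 against all other annotated cells, 32 without mitochondrial genes in the total, 50 in cells under 20% mitochondrial UMIs and 36 without sub-group 26, the last chosen after seeing the data. Leaving peptide genes out of the total, also chosen after seeing the data, shifted all log2 ratios by -0.11 and left 14 higher and 70 lower genes. Sub-group counts (83, 99 and 104 in sub-groups 6, 16 and 26) were 49 and 62 in sub-groups 6 and 16 with 10 CPM added, 97, 88 and 186 at 2000 UMIs a cell, where most were other genes, and 493 against 286 in all at a resolution of 5.

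For the sexes within cluster 4 (5 higher, 4 lower in males), DESeq2 called 8 and 6, no filter on low counts 1 and 0 (edgeR), logistic transfer and a spread share of at least 0.5 each 2 and 4. Leaving out a library gave 1 to 8 higher and 1 to 5 lower, 1 and 1 without female replicate 1, 2 higher without female replicate 2 and 1 higher without female replicate 3, and 8 and 5 without male replicate 2. The replicate block called 14 and 27, including the same 9. Equal numbers pair no animals, and same-numbered libraries correlated at -0.05 and 0.15, so the block has no basis in the design. The calls of evm.TU.CTG-333.35 held in 13 of 13 alternatives those of ENOX2_S2 in 12 of 13, of RBM10, evm.TU.CTG-1523.1 and evm.TU.CTG-1084.7 in 11 of 13, of evm.TU.CTG-1337.15 in 9 of 13, and the other 3 in 5 or 6.

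The interaction (11 higher, 2 lower) gave 31 and 9 without a filter and 5 and 1 with logistic transfer, under which NPF turned to -1.06. Leaving out a library gave 5 to 29 higher and 0 to 13 lower, with 5 and 0 without female replicate 2, 21 and 13 without female replicate 3, 25 and 13 without male replicate 1, 29 and 4 without male replicate 2 and 5 lower without female replicate 1. The difference in share ran from 0.44 to 2.29 percentage points when 1 library was left out. Of 319 recomputed ratios of single genes, 50 moved by more than their counting error and 0 changed sign. Of 219 recomputed sex tests, 55 lost their call and 1 reversed. The main limits are 1 annotated library and 2 male against 3 female libraries. Of carried cells, 65.6% or fewer belonged to the cluster in female replicate 3, the only library where this could be measured.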
